A study of Mus musculus with 55 samples.

Results

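The 10 activity-dependent immediate early genes Fos, Fosb, Junb, Egr1, Egr2, Egr3, Egr4, Arc, Npas4 and Nr4a1 were followed in RNA-seq of the mouse ventral dentate gyrus. They were chosen by name, by a rule that uses none of their values although earlier results of these data were known, and matched by symbol to Ensembl identifiers. All 10 of the 45318 identifiers in the files were found, and all 10 passed the filter on low counts that left 18283 genes for testing.

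Adult C57/BL6J male mice with no transgene were raised in standard housing (SH) or an enriched environment (EE) and then either left unstressed (CON) or put through chronic social defeat stress (CSDS) by an aggressive male. Defeated mice were divided by their social interaction ratio into resilient (RES) and susceptible (SUS) animals, so that these phenotypes were assigned by behavior and not by treatment. The groups held 10 SH CON, 7 SH RES, 10 SH SUS, 9 EE CON, 9 EE RES and 9 EE SUS mice, 54 in all, each an unpooled tissue punch. EE CON mouse 9 was sequenced in 2 runs, which were summed and counted as 1 mouse. The interval between the last social contact and tissue collection is not in the labels.

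Immediate early genes are transcribed within minutes of a burst of neuronal firing, without new protein synthesis, when calcium entry and kinase cascades act on factors such as CREB and SRF that already sit at their promoters. Their transcripts are short-lived, so a single dissection captures recent activity. In the dentate gyrus, where granule cells fire sparsely, Fos and Arc are classic labels of the few cells active during an experience, whereas the stable truncated product of Fosb, ΔFosB, is known for accumulating under repeated stimulation.

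CREB binds the palindromic cAMP response element TGACGTCA or its core, TGACG. RefSeq promoter windows, from 250 bases before to 50 after an annotated start, were available for 7 of the 10 members (Fos, Fosb, Junb, Egr2, Egr4, Npas4 and Nr4a1). On either strand the core was present in a window of all 7, against 20.8% of 32851 mouse windows. A member counts here if any of its windows matches, with 11 windows over the 7 members, whereas the shares are per single window. The whole palindrome, which contains the core, was present in 0 of 7 members and 1.79% of all windows. The AP-1 site TGANTCA, at which Fos and Jun proteins bind as pairs, was likewise found in 0 of 7 and in 7.81% of windows. An EGR site, GCGNGGGCG, was present in Fosb and Nr4a1 and in 5.55% of windows. The CArG box, the sequence bound by SRF, was found in Egr2 and in 1.63% of windows. TATAAA was found in Fos, at position -33 from the annotated start, in Junb, at position 1, and in 13.6% of windows. A match describes the letters only, and no match says only that these letters are not in this window.

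Windows are shown for Fosb, the member that differed most between housing conditions, for its paralog Fos, for Egr2 with its CArG box, and for Nr4a1, whose window held the most cores, 4. They are written 5′ to 3′ on the gene's strand in GRCm38.p6, and capitals mark the motifs named above. The Fosb window is chr7:19309996-19310295 on the minus strand, with the core at position -60 from the start site and the EGR site at -50. The Fos window is chr12:85473640-85473939 on the plus strand, with cores at -129 and -66 and TATAAA at -33. For Egr2, with 5 annotated windows, chr10:67537619-67537918 on the plus strand is shown, with the CArG box at -72 between cores at -111 and -55. The Nr4a1 window is chr15:101266596-101266895 on the plus strand.
Fosb: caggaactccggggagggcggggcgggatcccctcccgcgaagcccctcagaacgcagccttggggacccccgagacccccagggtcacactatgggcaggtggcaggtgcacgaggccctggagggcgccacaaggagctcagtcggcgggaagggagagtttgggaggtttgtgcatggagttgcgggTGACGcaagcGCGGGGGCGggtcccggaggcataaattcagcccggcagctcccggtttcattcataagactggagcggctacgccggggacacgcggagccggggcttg
Fos: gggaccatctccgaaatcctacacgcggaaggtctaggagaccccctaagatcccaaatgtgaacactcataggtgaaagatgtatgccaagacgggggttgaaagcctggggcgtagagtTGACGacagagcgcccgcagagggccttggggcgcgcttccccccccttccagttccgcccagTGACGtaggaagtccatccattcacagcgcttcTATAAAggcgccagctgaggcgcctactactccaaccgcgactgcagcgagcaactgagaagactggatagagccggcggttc
Egr2: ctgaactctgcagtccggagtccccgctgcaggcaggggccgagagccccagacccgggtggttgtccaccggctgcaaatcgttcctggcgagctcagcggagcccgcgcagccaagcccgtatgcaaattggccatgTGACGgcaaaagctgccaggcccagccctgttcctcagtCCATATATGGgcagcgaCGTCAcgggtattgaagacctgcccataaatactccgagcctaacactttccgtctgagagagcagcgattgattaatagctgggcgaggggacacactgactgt
Nr4a1: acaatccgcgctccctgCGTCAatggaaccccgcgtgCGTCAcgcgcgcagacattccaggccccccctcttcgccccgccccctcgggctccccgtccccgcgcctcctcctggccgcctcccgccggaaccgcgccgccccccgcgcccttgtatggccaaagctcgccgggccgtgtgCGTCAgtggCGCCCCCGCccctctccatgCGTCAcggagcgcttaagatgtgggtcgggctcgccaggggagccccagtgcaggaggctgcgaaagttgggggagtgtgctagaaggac

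Libraries held 32223034 to 49990637 read pairs, of which 16760009 to 24426804 were assigned to genes in a single library and 45872357 in the summed mouse. Levels are given as CPM, counts scaled to the effective library size after TMM normalization. Marker genes were read beside the dentate label. The 7 granule cell markers summed to 617 to 1253 CPM per mouse. The CA1 list summed to 62.0 to 254.7 CPM and the CA3 list to 214 to 457 CPM. The lists hold different genes, so their sums do not give shares of tissue. No marker of any list was at 0 in every mouse, so detection alone does not tell the regions apart. Markers of neighboring tissue varied widely, with the choroid plexus list at 16.5 to 972.6 CPM and the thalamic list at 23.2 to 298.3 CPM. The 5 red cell markers were all called higher in defeated mice, with a median log2 fold change of 1.09, where 0.0438% of all genes were called higher.

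Arc was the most abundant member and Egr2 the least. Per kilobase of exon, mean levels over 54 mice were 15.3 CPM for Arc, 9.38 for Junb, 2.36 for Egr3, 2.18 for Nr4a1, 1.48 for Fos, 1.38 for Egr1, 0.905 for Egr4, 0.466 for Npas4, 0.250 for Fosb and 0.203 for Egr2. The median count in a mouse was 978 for Arc but 34 for Fosb and 13 for Egr2, so that counting error weighs most on the last of these. In bulk tissue, fewer active cells and less RNA per active cell cannot be told apart.

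The members also varied unequally between mice. The biological coefficient of variation, which is the spread between mice of a group after counting error is removed, was 34.1% for Npas4, 32.4% for Egr2 and 28.5% for Fos, against a median of 8.85% over all genes tested. It was 12.4% for Fosb, the lowest of the 10, and 13.2% for Junb. Npas4 thus lay at percentile 98.4 of all genes and Fosb at percentile 68.2.

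Fosb encodes a Fos-family partner of the AP-1 factor (ENSMUSG00000003545, chr7:19302696-19310051, minus strand). Its level was higher in EE than in SH mice. In SH mice Fosb ranged from 0.921 to 2.04 CPM with a median of 1.34 CPM. In EE mice it ranged from 0.917 to 2.38 CPM with a median of 1.68 CPM. The ranges overlapped over most of their length, yet 25 of 27 EE mice lay above the SH median and 4 of 27 SH mice lay above the EE median. The log2 fold change of EE over SH, averaged over the 3 phenotypes, was 0.33 ± 0.08 (SE, n = 27 per housing), a 1.25-fold difference with a 95% interval on the log2 scale of 0.17 to 0.49 (edgeR quasi-likelihood test, Benjamini-Hochberg adjusted p = 0.0214). Fosb was the 1 member of 10 called at an adjusted p of 0.05, where 2.27% of all genes were called and 0.826% were called higher in EE. limma-voom gave an adjusted p of 0.0289 and DESeq2 one of 0.0102. Mice of a housing were raised in shared cages, with larger groups to a cage in EE than in SH. The labels do not give the cages, so that effects of cage and of housing cannot be told apart and the p-values treat mice of a cage as independent.

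Within single groups, Fosb ranged from 1.05 to 1.85 CPM in SH CON with a median of 1.49 CPM. In SH RES it ranged from 0.921 to 2.04 CPM around 1.34 CPM, and in SH SUS from 1.03 to 1.67 CPM around 1.24 CPM. The 3 SH groups had the lowest mean levels of the 6 groups. In EE CON it ranged from 1.24 to 2.16 CPM around 1.61 CPM. In EE RES it ranged from 0.917 to 2.29 CPM around 1.82 CPM, and in EE SUS from 1.41 to 2.38 CPM around 1.73 CPM. Mean levels thus fell in the order EE RES (1.82 ± 0.44 CPM, SD), EE SUS (1.76 ± 0.31), EE CON (1.62 ± 0.30), SH CON (1.46 ± 0.27), SH RES (1.41 ± 0.36) and SH SUS (1.29 ± 0.23), and no neighbors in that order differed by more than 1 SD.

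**Figure D1:**
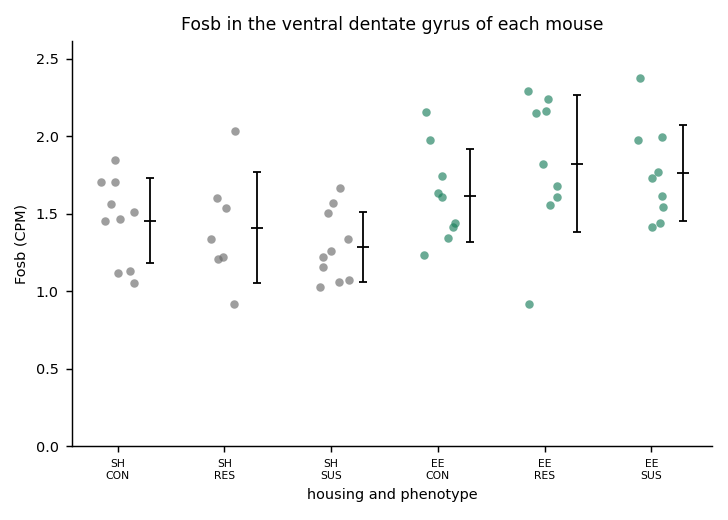
Fosb level in CPM (vertical axis, from 0) in each of 54 mice by housing and phenotype, with SH mice in gray and EE mice in green. Black bars give the group mean ± SD, and all 3 EE means, 1.62 to 1.82 CPM, lie above all 3 SH means, 1.29 to 1.46 CPM, although the mice overlap.

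Split by phenotype, Fosb was 0.15 ± 0.14 (log2, SE) higher in EE among CON mice (edgeR p = 0.291), 0.38 ± 0.15 higher among RES mice (p = 0.0148, adjusted p = 0.194) and 0.45 ± 0.14 higher among SUS mice (p = 0.00186, adjusted p = 0.415). None of these was called after adjustment, where 0.00547%, 0.246% and 0% of all genes were called and 0.00547%, 0.104% and 0% called higher. Before adjustment 4.88%, 15.9% and 7.22% of all genes had a p under 0.05 in the 3 phenotypes. Whether defeat changed the housing difference was tested as an interaction, which gave 0.27 ± 0.17 on the log2 scale (edgeR p = 0.121, adjusted p = 0.79). The interaction of SUS against RES with housing was 0.07 ± 0.20 (p = 0.717). The housing differences of the 3 phenotypes are therefore not shown to differ.

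Some markers of tissue makeup also differed with housing, where 2.27% of all genes were called. Of the granule cell list, 2 of 7 genes were called lower in EE, Dsp (log2 fold change -0.30, edgeR adjusted p = 0.0411) and Tdo2 (-0.28, adjusted p = 0.0301), and 1 of 7 was higher. The summed list ran from 703 to 1214 CPM with a median of 1030 CPM in SH mice. In EE mice it ran from 617 to 1253 CPM with a median of 949 CPM. The endothelial marker Flt1 was called higher in EE (0.23, edgeR adjusted p = 0.0229), and 5 of 5 endothelial markers were higher. Of the oligodendrocyte, CA1 and thalamic lists, 5 of 5 markers each were higher without being called, where 53.0% of all genes were higher. Of the CA3, interneuron and microglia lists 4 of 5 each were higher, and of the choroid plexus list 4 of 6. Other lists did not share that direction, with 0 of 5 hilar mossy cell, 0 of 5 red cell and 2 of 4 astrocyte markers higher. With scores of the granule cell, CA1, CA3, choroid plexus and thalamic lists in the fit, the Fosb difference was 0.34 (edgeR adjusted p = 0.0378). With the scores of all 12 marker lists, an alternative chosen after seeing the data, it was 0.28 ± 0.11 (p = 0.0135) and no longer called (adjusted p = 0.34), in a fit that called 15 genes in place of 415.

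**Figure D2:**
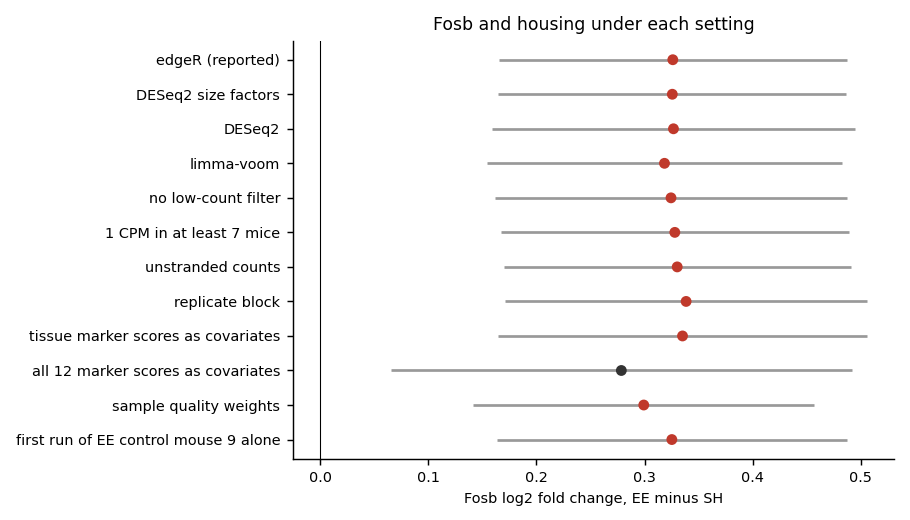
Log2 fold change of Fosb, EE minus SH (horizontal axis), in the reported edgeR fit and under 11 other settings, with bars for 95% intervals. Red points have an adjusted p under 0.05. The estimates lie between 0.28 and 0.34, and the fit with all 12 marker scores is the one that is not called.

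The other AP-1 members were lower in EE, without passing the adjusted test. Fos (ENSMUSG00000021250), the prototype of the family, ranged from 1.94 to 6.98 CPM with a median of 3.53 CPM in SH, and from 1.48 to 6.68 CPM with a median of 3.26 CPM in EE mice. The housing groups overlapped over most of their range, and the log2 fold change was -0.22 ± 0.12 (edgeR p = 0.0805, adjusted p = 0.361). Junb (ENSMUSG00000052837), a Jun-family partner of Fos proteins, ranged from 16.7 to 30.0 CPM in SH and from 14.9 to 28.8 CPM in EE mice, with medians of 21.9 and 20.5 CPM. The gene overlaps Prdx2 on the opposite strand, whose reads the stranded counts leave out. The log2 fold change of Junb was -0.11 ± 0.05 (edgeR p = 0.0449, adjusted p = 0.271), so that it passed the unadjusted but not the adjusted threshold, as 17.5% of all genes did before adjustment.

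Since Fos and Fosb point in opposite directions, their counts were also set against each other within each mouse, which removes library size. The number of Fosb counts per Fos count had a median of 0.373 in SH mice (0.224 to 0.951) and of 0.509 in EE mice (0.316 to 1.02). By group the medians were 0.375, 0.373 and 0.365 in SH CON, RES and SUS mice, and 0.500, 0.509 and 0.580 in EE CON, RES and SUS mice. The ratio is built from values already compared above and is given as a description. Gene counts do not separate full-length Fosb from ΔFosB transcripts.

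The EGR genes encode zinc-finger factors that bind the GC-rich EGR site. Egr1 (ENSMUSG00000038418), the best known of them, ranged from 3.39 to 8.71 CPM in SH and from 3.89 to 9.49 CPM in EE mice (log2 fold change 0.05 ± 0.09). Egr3 (ENSMUSG00000033730) ranged from 8.26 to 13.97 CPM in SH and from 7.94 to 13.9 CPM in EE mice (-0.01 ± 0.06). Egr2 (ENSMUSG00000037868), also a regulator of myelination in peripheral glia, ranged from 0.236 to 1.88 CPM in SH and from 0.133 to 1.36 CPM in EE mice (-0.27 ± 0.17). None of the 3 was called by edgeR (adjusted p = 0.837, 0.979 and 0.416), and the signs of Egr1 and Egr3 turned with marker scores in the fit. Of the stranded counts at Egr2, 24.5% lay on the opposite strand and were not counted here.

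Egr4 (ENSMUSG00000071341) stood lowest in EE SUS and highest in SH SUS mice. It ranged from 1.67 to 2.77 CPM with a median of 2.36 CPM in SH SUS and from 1.32 to 2.21 CPM with a median of 1.60 CPM in EE SUS mice, and the groups overlapped. Over all mice the housing log2 fold change was -0.16 ± 0.09 (edgeR p = 0.0654, adjusted p = 0.326). Among SUS mice it was -0.42 ± 0.15 (p = 0.00557, adjusted p = 0.517). By the criterion that the study used for DEGs, limma-voom with an unadjusted p under 0.05 and a fold change over 1.3, Fosb and Egr4 were DEGs between EE SUS and SH SUS mice, 2 of 10 members against 1.56% of all genes. No other comparison held a member past that criterion. The share of all genes past it was 0.481% for defeat, 0.613% for housing, 1.12% and 3.24% for EE against SH in CON and RES mice, and 0.93%, 1.21% and 1.14% for SUS against CON, RES against CON and SUS against RES in SH. In EE these shares were 1.94%, 1.17% and 1.1%, and for the interactions of defeat and of SUS with housing 1.68% and 2.29%. The interaction of SUS against RES with housing for Egr4 was -0.33 ± 0.22 (edgeR p = 0.133).

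The remaining members were a synaptic effector and regulators of activity-dependent programs. Arc (ENSMUSG00000022602), whose protein acts in AMPA receptor trafficking at the synapse, ranged from 32.4 to 78.9 CPM in SH and from 33.2 to 60.4 CPM in EE mice (log2 fold change -0.02 ± 0.07). Npas4 (ENSMUSG00000045903), a neuronal factor induced by calcium entry, ranged from 0.659 to 3.73 CPM in SH and from 1.02 to 3.73 CPM in EE mice (0.13 ± 0.15). Nr4a1 (ENSMUSG00000023034), an orphan nuclear receptor, ranged from 5.42 to 10.8 CPM in SH and from 4.87 to 9.22 CPM in EE mice (-0.10 ± 0.07). The housing groups overlapped for each, and edgeR called none of them (adjusted p = 0.92, 0.708 and 0.485).

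**Figure D3:**
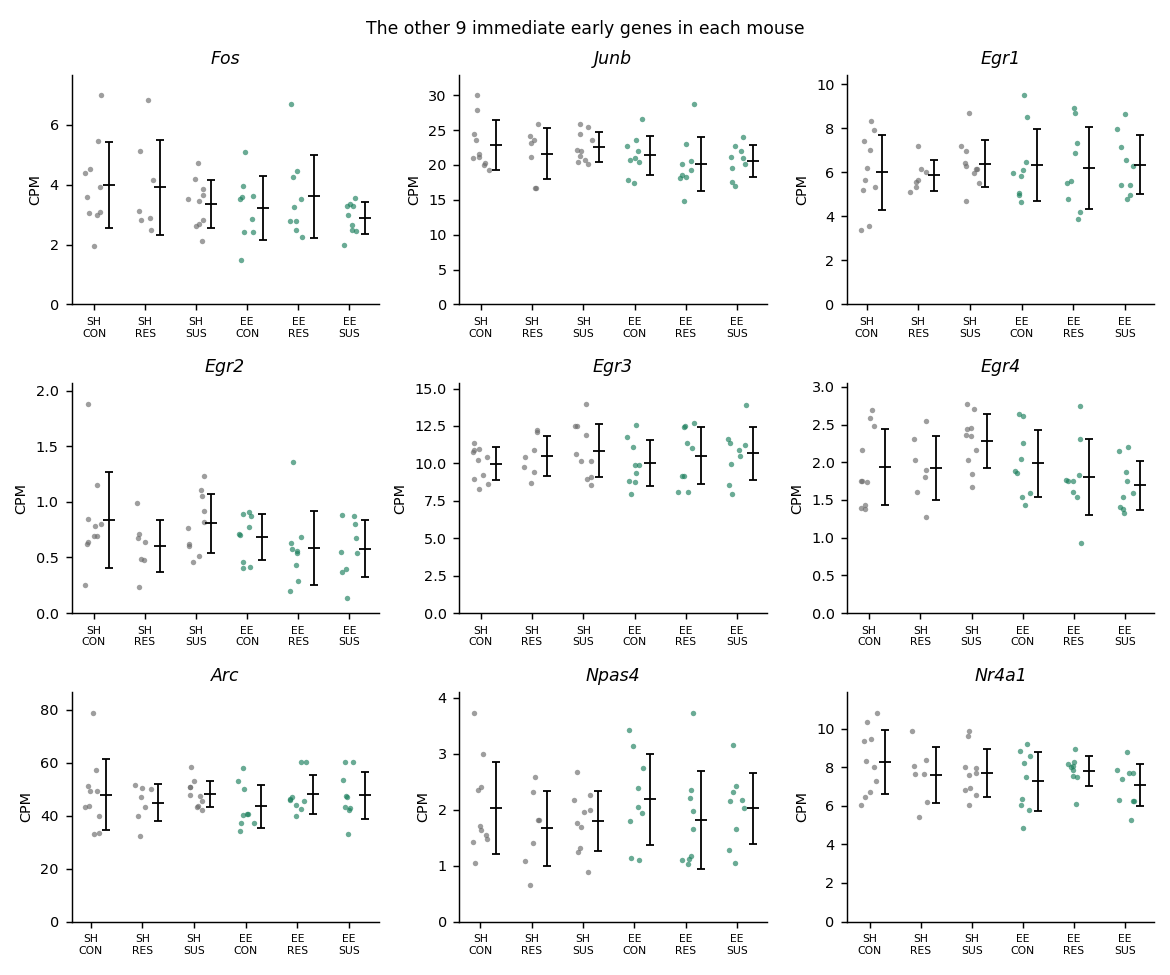
Levels in CPM (vertical axes, from 0, scaled per gene) of the other 9 members in each mouse by housing (SH gray, EE green) and phenotype, with group mean ± SD in black. For every gene all 6 groups overlap one another.

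Taking all 10 members, 3 were higher and 7 lower in EE, with a median log2 fold change of -0.06, while over all genes the median was 0.004 and 53.0% were higher. Their directions were mixed.

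CSDS was compared with no stress over both housing conditions, as the mean of the 4 defeated groups against the mean of the 2 control groups. No member passed the test. Fos ranged from 1.48 to 6.98 CPM with a median of 3.58 CPM in 19 control mice and from 1.996 to 6.82 CPM with a median of 3.26 CPM in 35 defeated mice. Arc ranged from 32.9 to 78.9 CPM with a median of 43.1 CPM in controls and from 32.4 to 60.4 CPM with a median of 46.9 CPM in defeated mice. Control and defeated mice overlapped for both genes.

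In the defeat comparison edgeR called 0 of 10 members, where 0.0438% of all genes were called, and 0 of 10 passed an unadjusted p of 0.05 by edgeR, limma-voom or DESeq2, where 4.66% of all genes did by edgeR. Log2 fold changes ran from -0.24 ± 0.17 for Egr2 to 0.09 ± 0.06 for Egr3, with a median of -0.04 against -0.003 over all genes. A missed threshold does not show equality, and the 95% intervals give what these mice could resolve. They ran from -0.17 to 0.05 for Junb, from -0.10 to 0.19 for Arc, from -0.15 to 0.19 for Fosb and from -0.31 to 0.19 for Fos. For Egr1 the interval ran from -0.18 to 0.19. They were widest for Egr2 (-0.57 to 0.09) and Npas4 (-0.50 to 0.10). The red cell markers that rose with defeat were described above, and their part alone in these values was not tested. The fit with the scores of all 12 marker lists, chosen after seeing the data, has the red cell score among them. It called 0 of 10 members for defeat, with Egr1 at -0.345 (edgeR adjusted p = 0.108). With these scores in limma-voom, Egr2 and Npas4 passed the unadjusted criterion of the study for defeat.

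**Figure D4:**
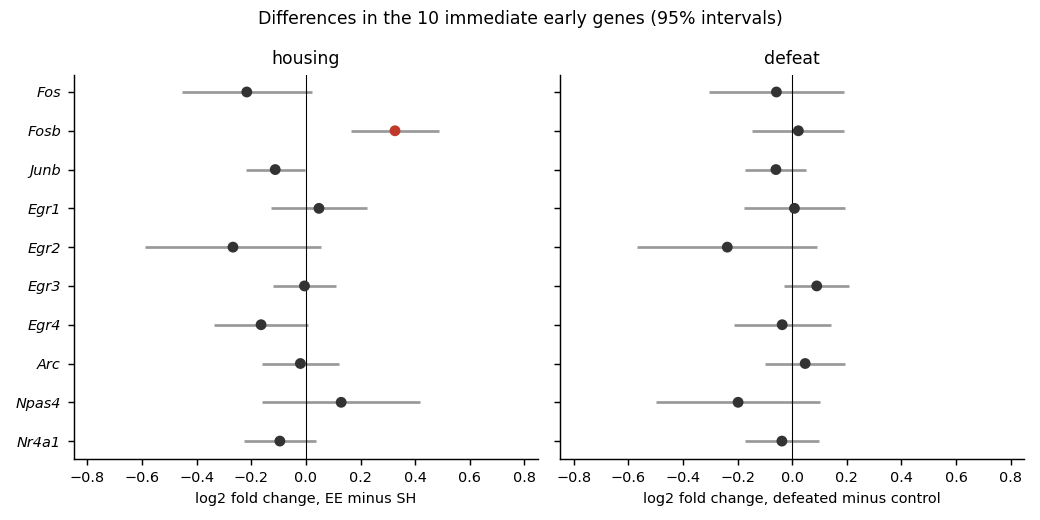
Log2 fold changes (horizontal axes) of the 10 members between EE and SH (left) and between defeated and control mice (right), with 95% intervals. The red point, Fosb at 0.33 in the housing panel, is the single called value, and all 10 intervals of the defeat panel include 0.

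No member passed the test between RES and SUS mice either. Between SUS and RES mice, edgeR called 0 of 10 members in SH and 0 of 10 in EE, where 0% of all genes were called in each. No member passed an unadjusted p of 0.05 by any of the 3 tools, where 4.76% of all genes did in SH and 3.44% in EE by edgeR. The largest difference in SH was Egr2, 0.42 ± 0.29 higher in SUS mice on the log2 scale (edgeR p = 0.158), and in EE it was Fos, -0.33 ± 0.21 (p = 0.128). Egr2 counts in these mice were few, from 5 to 23 in SH RES and from 10 to 26 in SH SUS mice. Against controls, 0 of 10 members were called for SUS or RES mice of either housing, with background shares of 0.0328% for SUS in SH and 0% for the other 3 comparisons. The unadjusted counts were 0 of 10 by all 3 tools, against 2.75% for SUS and 3.41% for RES mice in SH and 7.73% for each in EE. The largest of these differences was Egr2 in SH RES mice (-0.47 ± 0.29).

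A test over the 6 groups at once also called 0 of 10 members, against 0.312% of all genes. Fosb was the 1 member with an unadjusted p under 0.05, as 10.9% of all genes had, by edgeR, limma-voom and DESeq2 (edgeR p = 0.00396, adjusted p = 0.205). The interactions of defeat with housing and of SUS against RES with housing called 0 of 10 members each, against 0% of all genes, and 0 of 10 passed an unadjusted p of 0.05 by any of the 3 tools, against 6.31% and 4.75% of all genes by edgeR. No pair of groups was free of overlap for any member, where 0% to 0.219% of all genes separated a pair.

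Other genes of the pathway were taken from 4 lists. Of 31 rapid response genes, 0 were called by edgeR in the test of the 6 groups, for defeat or for housing, where 0.312%, 0.0438% and 2.27% of all genes were called. Before adjustment 5, 2 and 7 had a p under 0.05, where 10.9%, 4.66% and 17.5% of all genes did, so that these counts lay near the background. Those with the smallest p for housing were Gadd45g, a growth arrest and DNA damage gene (log2 fold change -0.15, adjusted p = 0.0722), and Midn, the gene of midnolin, a protein that carries immediate early proteins to the proteasome (0.16, adjusted p = 0.0774). Both missed the adjusted threshold. Midn averaged 9.02 ± 1.09 CPM in SH and 10.04 ± 1.53 CPM in EE mice, and Gadd45g 10.9 ± 1.35 and 9.86 ± 1.13 CPM. For defeat they were Ier3, a stress-induced survival gene (0.34 ± 0.11, p = 0.00289, adjusted p = 0.734), and Ccn1, a secreted matrix protein gene (-0.14 ± 0.07, p = 0.0359). Ier3 averaged 4.06 ± 1.54 CPM in EE SUS mice and 2.49 ± 0.41 CPM in EE CON mice, the highest and lowest of the 6 group means. The other means were 2.60 CPM in SH CON, 2.92 in SH RES, 3.05 in SH SUS and 3.07 in EE RES mice.

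Paralogs and partners were likewise not called, 0 of 8 tested, Fosl1 having too few counts, against the same shares of all genes. Before adjustment 0, 0 and 2 of them had a p under 0.05 in the test of the 6 groups, for defeat and for housing. Over all genes these shares were 10.9%, 4.66% and 17.5% by edgeR. Nab2, a corepressor of the EGR factors, had a housing log2 fold change of -0.09 ± 0.04 (edgeR adjusted p = 0.154), and Jund, a Jun paralog, of 0.09 ± 0.04 (adjusted p = 0.197). For defeat the smallest p in that list belonged to Nr4a3, a receptor related to Nr4a1 (0.11 ± 0.06), and to Atf2, a partner of Jun (0.02 ± 0.02). Each had an adjusted p of 0.989.

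Of 10 late response genes, 0 were called in the test of the 6 groups, for defeat or for housing, where 0.312%, 0.0438% and 2.27% of all genes were. Before adjustment 2, 3 and 3 of them had a p under 0.05, where 10.9%, 4.66% and 17.5% of all genes did by edgeR. Rasgrp1, a Ras activator, was at 0.18 ± 0.06 for defeat (edgeR p = 0.00373, adjusted p = 0.792) and Ptgs2, the inducible cyclooxygenase, at 0.18 ± 0.07 (adjusted p = 0.955). For housing Inhba, the activin A subunit, was at -0.18 ± 0.07 (adjusted p = 0.188) and Sorcs3, a sorting receptor, at 0.11 ± 0.05 (adjusted p = 0.261). These values stood apart from 0 only before adjustment.

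Of 24 upstream regulators, 0 were called in those 3 tests, against the same shares of all genes, and 1, 0 and 4 had an unadjusted p under 0.05, where 10.9%, 4.66% and 17.5% of all genes did. Mapk3, the ERK1 kinase, was at -0.10 ± 0.03 for housing (edgeR p = 0.00419, adjusted p = 0.0934) and Camk2a, the alpha subunit of calcium/calmodulin kinase II, at -0.08 ± 0.03 (adjusted p = 0.157). For defeat Mef2a, a calcium-regulated factor, was at 0.04 ± 0.02 (adjusted p = 0.989). In the test of the 6 groups Mapk3 and Mef2c, another MEF2 factor, had the smallest p of this list (adjusted p = 0.407 and 0.536).

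To see whether the members rose and fell in the same mice, Spearman's rho was computed on log2 CPM over 54 mice after group means were removed. Over the 45 pairs rho ran from -0.24 to 0.57 with a median of 0.24, and 37 pairs were above 0. The mice share library and depth effects across genes, and values for gene pairs in general are not given here, so these values are descriptions. Nr4a1 was in 4 of the 7 pairs above 0.4, with Arc (0.57), Egr1 (0.50), Fos (0.48) and Egr2 (0.41). The others were Fos with Egr2 (0.45), Egr4 with Npas4 (0.44) and Junb with Egr4 (0.42). Fosb had no such partner, with 0.26 to Egr4 as its highest value, 0.10 to Fos and -0.17 to Arc.

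**Figure D5:**
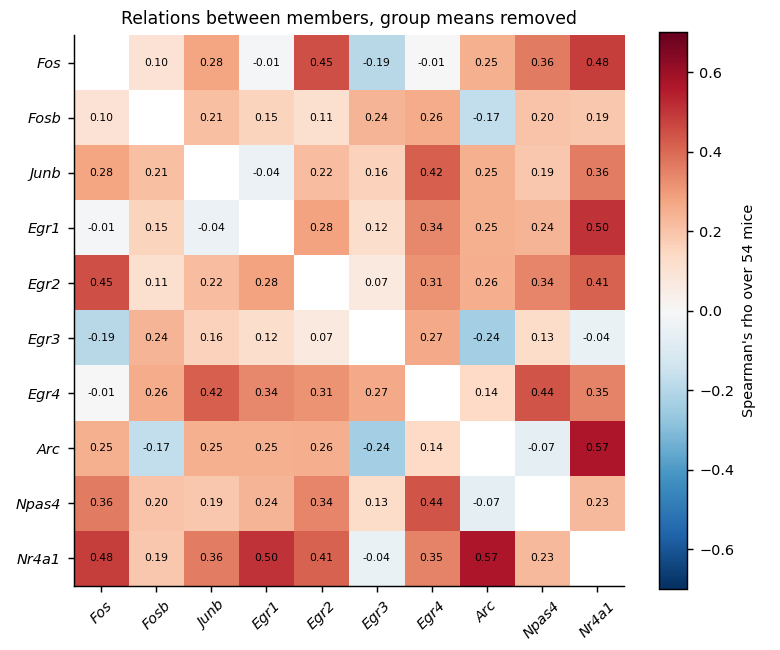
Spearman's rho between the 10 members over 54 mice after group means were removed, as color and number. Nr4a1 has the highest values, up to 0.57 with Arc, and the Fosb row stays at or below 0.26.

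The same values against the granule cell marker score were -0.48 for Egr1, -0.44 for Arc, -0.40 for Nr4a1, 0.35 for Egr3 and 0.01 for Fosb. With the CA1 pyramidal score Nr4a1 was at 0.44, Junb at 0.37 and Egr1 at 0.34. Egr1 was at 0.42 with the endothelial and 0.38 with the red cell score, and Npas4 at 0.38 with the red cell score. Egr3 was at -0.47 with the astrocyte, -0.42 with the oligodendrocyte and -0.38 with the interneuron score. Fosb lay between -0.26 with the astrocyte score, followed by -0.25 with microglia and -0.23 with red cells, and 0.09 with CA1. Mice with less granule cell signal in the punch thus tended to have more Egr1, Arc and Nr4a1 and less Egr3, and the part of tissue makeup in the relations between members was not tested. Outside the family, the genes most like the members were Atp13a2, Gnl1, Rell2, Iqsec1 and Abca7, whose mean rho to the 10 members over 54 mice was 0.38, 0.35, 0.34, 0.34 and 0.33. These were picked as the highest of all genes. The mean rho of a member to the other members ran from 0.06 for Egr3 to 0.34 for Nr4a1, below that of Atp13a2.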

How the data were processed

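The authors deposited 1 table of read counts per library in the layout that STAR writes, with unstranded, forward and reverse counts per Ensembl gene. The submitters' processing notes name STAR, Picard and mm10, whereas the study's methods name featureCounts after alignment to GRCm38. Low-quality reads were discarded and libraries were stranded total RNA. Versions are not given in the sources used here. Reverse-strand counts were used, since forward counts were 3.51% to 4.13% of stranded counts. The 55 libraries gave 54 mice, because both runs of EE CON mouse 9 were summed (r = 0.9991 between runs, 0.9981 at most with another EE CON mouse). Each mouse is a separate animal.

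Counts were filtered by filterByExpr, TMM-normalized and fitted over all 6 groups with edgeR 4.0.16 (quasi-likelihood test, Benjamini-Hochberg adjustment over 18283 genes, threshold 0.05) in R 4.3.3. Members were fitted within the whole table. limma 3.58.1 and DESeq2 1.42.0 were alternatives, as were other filters, strand, marker covariates, a replicate block and leaving out each mouse. Standard errors were taken from the test statistic. The fits were also run on simulated counts with larger changes than those of the members and with independent mice. That run does not speak to differences as small as those reported here. Symbols came from a gene table that matched 44585 of 45318 identifiers, exon lengths from GENCODE on GRCm38 and promoters from RefSeq. Named pathway genes were the 2 with the smallest p per list and comparison, because none was called, and 1 of these genes is not reported here. The genes most like the members were the 5 with the highest mean rho. The members, lists and tests were chosen with earlier results of these data known.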

Additional observations from a re-analysis of the deposited data

Results flagged for a closer look

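In each of 60 sets of values, the 10 members in 6 groups, the distance of the highest or lowest mouse from its nearest neighbor was set against the range of its group by Dixon's criterion, which chance alone exceeds in about 1 in 20 groups. It was exceeded in 4. EE RES mouse 7 was the highest of its group for Fos (6.68 CPM, the next mouse 4.44 CPM), Egr2 (1.36 CPM, next 0.681 CPM) and Npas4 (3.73 CPM, next 2.35 CPM). Among all 54 mice it ranked 1 for Npas4, 2 for Junb and Egr2, and 3 for Fos and Fosb, but 51 for Egr1 and Egr3 and 39 for Arc. SH CON mouse 10 had the highest Arc level of its group (78.9 CPM, next 57.3 CPM) and ranked 1 of 54 for Arc and Nr4a1. Leaving out either mouse changed no adjusted call of a member.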

How the results depend on the processing

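The Fosb housing difference was called under 10 of 11 other settings (log2 fold change 0.28 to 0.34 over all 11). The exception was the fit with all 12 marker scores, chosen after seeing the data, which called 0 members for housing (Fosb 0.28, adjusted p = 0.34, where edgeR called 15 genes in all). Leaving out each of the 54 mice gave 0.30 to 0.36 with adjusted p from 0.0064 to 0.0429. Of 916 counts of called members under the alternatives, 915 were within 1.5 times the reported one. The reported count was 0 in every comparison but housing, so that only the housing count could fall, and the tally says little beyond that.

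Under the study's criterion for DEGs, the fit with 12 scores gave 2 members for defeat (Egr2 and Npas4), 1 for housing (Egr2), 1 each for SUS and RES against CON in SH (Npas4), and in EE 1 for SUS (Egr1) and 2 for RES against CON (Egr1 and Npas4), in place of 0. For EE against SH in RES mice, edgeR and DESeq2 gave 1 (Fosb) in place of 0. With mice left out the count ran from 0 to 1 in EE against SH for CON mice (Fos, without EE CON mouse 8 or SH CON mouse 6) and for RES mice (Fosb), and from 1 to 3 for SUS mice. For EE against SH in SUS mice, Egr4 was lost without EE SUS mouse 7, and also with 12 scores, which gave 2 members, Fosb and Egr2. Sample quality weights gave 3 (Fosb, Egr2 and Egr4), as did leaving out EE RES mouse 7, among others.

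Some differences that were reported near 0 changed sign, none of them called. They did not all stay near 0. Egr1 for defeat went from 0.01 ± 0.09, with a 95% interval of -0.18 to 0.19, to -0.345 with 12 scores (edgeR adjusted p = 0.108). With 5 marker scores these were Egr1 (-0.0604) and Egr3 (0.0542) for housing, and Fosb (-0.0391), Junb (0.00429), Egr1 (-0.119) and Arc (-0.00145) for defeat. With 12 scores they were Egr1 (-0.0528) and Egr3 (0.0749) for housing, and Fosb (-0.0573), Egr1 (-0.345) and Egr3 (-0.0180) for defeat. Sample quality weights gave Fosb -0.00384 for defeat, and the first run alone of EE CON mouse 9 gave Egr1 -0.000349 for defeat. With mice left out, Egr3 ran from -0.0255 to 0.00938 and Arc from -0.0434 to 0.0138 for housing, and Fos from -0.102 to 0.00631 and Egr1 from -0.0268 to 0.0531 for defeat. The cause was not tested.

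Nothing in the labels says that mouse numbers pair the samples. Over 126 pairs of mice with the same number the median correlation of deviations from the group means was 0.03. These correlations ran from -0.26 to 0.44, and 32 pairs exceeded 0.1. For pairs with different numbers the median was -0.004. Whether some mice with the same number share a litter or batch was not tested. With the mouse number as a replicate block, Fosb was 0.34 for housing (adjusted p = 0.0212), Arc was 0.0122, and the number of genes called for housing was 518 in place of 415. Unstranded counts raised the mean CPM of Egr2 by more than 1 SD in 3 groups. Forward counts were 24.5% of the stranded counts of Egr2 and 9.44% of those of Egr4. Depth limits Egr2 (3 to 41 counts a mouse) and Fosb (19 to 64) most.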
